A study of Mus musculus with 3 samples.

Results

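The postsynaptic density is the protein layer under the membrane of excitatory synapses. Its scaffold is known to be built in tiers: the membrane-associated guanylate kinases of the Dlg family bind receptors, the Dlgap proteins (also called GKAP or SAPAP) bind the Dlg proteins, and the Shank proteins bind the Dlgap proteins and reach towards actin. ATRX peaks were described here at 10 genes of this scaffold (Dlg1, Dlg2, Dlg4, Dlgap1, Dlgap2, Dlgap3, Dlgap4, Shank1, Shank2 and Shank3), out of 21887 protein-coding genes. The genes were listed by name, and the members' peaks were those overlapping a gene or its flanks of 5 kb, 352 control and 274 MICAL1-FL peaks. ATRX is a chromatin remodeller known for depositing histone H3.3 at repeats, and MICAL1 is an enzyme known to oxidise actin filaments.

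The primary neurons came from C57BL6/J mice (embryonic stages E15.5-17.5) and grew in Neurobasal A with B27, 2 mM glutamine and 2% serum. All were infected with lentivirus on day 5 in vitro, with mCherry as the control and MICAL1-FL as the other condition, and the ChIP samples are labelled day 14 (DIV14). Chromatin was prepared with an enzymatic kit, precipitated with an antibody to ATRX and set against input DNA. The only input sample is labelled as input of control neurons, and there is none labelled MICAL1-FL. Which promoter drove the constructs and how many cells were infected are not stated in the labels. There was 1 ChIP library for either condition, so differences between conditions were not tested and have no replicate check. Intervals are exact 95% intervals (binomial for shares and ratios, Poisson for numbers of peaks) and cover counting error only. The MICAL1-FL list carries peak names starting with TBC_M2, so that its values rest on the sample label. The lists hold no expression values, so the neuron label was not checked with marker genes.

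The whole lists held 112153 control and 105674 MICAL1-FL peaks, and most peaks were shallow. Depth is the inferred number of ChIP fragments over the summit. It was recovered from the fold over background and the p-value of the authors' peak caller, whose formula was itself inferred. The median peak was 5 fragments deep in both lists, and the q-value (the p-value adjusted by the caller) was 1 for 95.8% of the control list and 96.9% of the MICAL1-FL list. Peaks at the scaffold genes were of the same kind, with a median depth of 5 fragments in both lists and median widths of 338 and 340 bp. Of them 1 of 352 control peaks, in Dlgap1, and 1 of 274 MICAL1-FL peaks, in Dlgap2, had a q-value below 0.05. Over the whole lists 466 of 112153 control and 402 of 105674 MICAL1-FL peaks had one. In protein-coding genes these were 223 of 54233 and 159 of 50260.

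ATRX peaks were dense along Dlgap1 and Shank2 in both libraries and near the level of all genes along Dlg2. Along Dlgap2 the density was 1.89 (control) and 1.20 (MICAL1-FL) times that of all genes. The short scaffold genes held few peaks each, which is a matter of number and not of density. The shortest, Dlg4, had the highest control density of the 10, at 3.34 times that of all genes on 6 peaks. Dlgap1 held 110 control and 83 MICAL1-FL peaks, Dlg2 93 and 89, Dlgap2 68 and 40, and Shank2 51 and 38. Each of the other 6 genes held at most 7 control and 9 MICAL1-FL peaks. By both lists together Dlgap1 was the 7th and Dlg2 the 10th of all protein-coding genes, while by length Dlg2 was the 7th and Dlgap1 the 93rd. Dlg2 spans 1973 kb, and the density per Mb takes length into account.

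Density is the number of peaks per Mb of gene and flanks. Over all protein-coding genes it was 46.8 control and 43.4 MICAL1-FL peaks per Mb, and over the 10 scaffold genes 74.8 and 58.2. The median over single genes was 57.6 and 41.9 for the scaffold genes and 32.8 and 29.4 for all genes. Over genes of 50 kb or longer the medians were closer, 51.8 and 44.9 for 9 scaffold genes and 41.2 and 39.4 for all. A density at least 1.5 times that of all genes, in both lists, was found at 2 of the 10 scaffold genes, where 10.1% of all genes have one. These were Dlgap1 and Shank2, both among the 9 members of 50 kb or longer (9.48% of all genes of that length). Among control peaks the mark was passed by 4 scaffold genes (23.6% of all genes), which included Dlg4 and Dlgap2, and among MICAL1-FL peaks by the same 2 genes (22.8% of all genes). The summed control density over that of all genes was 1.60, and it was 1.34 without Dlgap1 and 2.03 without Dlg2.

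**Figure D1:**
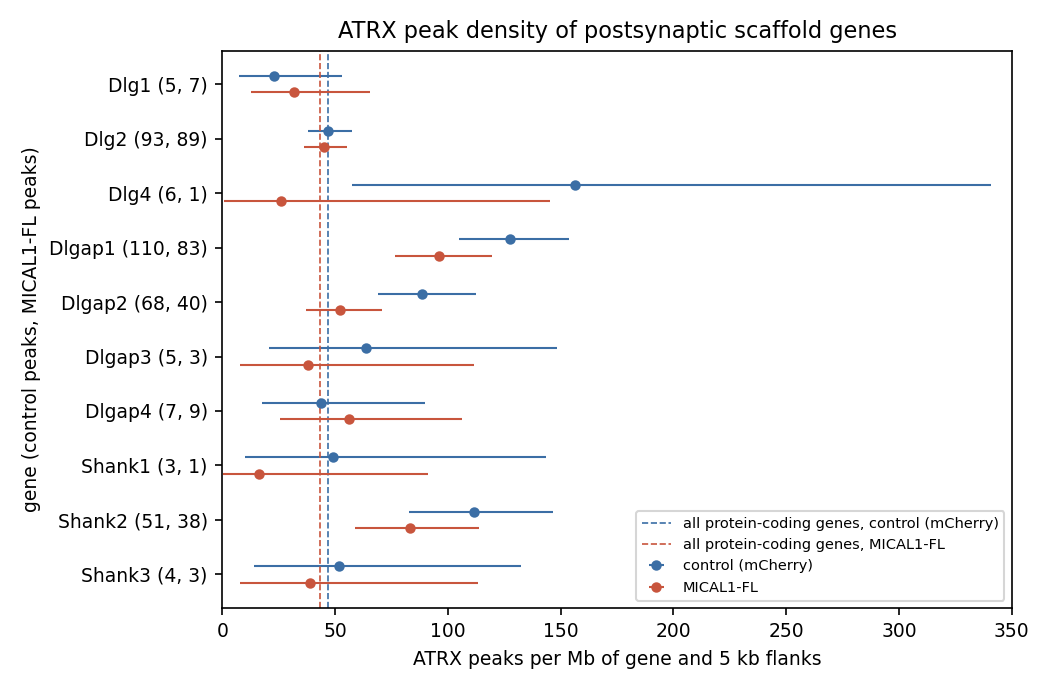
ATRX peaks per Mb of gene and 5 kb flanks (x axis) at each scaffold gene (y axis, with the numbers of peaks), with exact 95% Poisson intervals, in the control (blue) and MICAL1-FL (red) lists. Dashed lines are all protein-coding genes (46.8 and 43.4 per Mb); both intervals of Dlgap1 and of Shank2 lie above them, those of Dlg2 include them, and those of the short genes are wide.

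Peaks also lay at promoters. RefSeq promoter sequences (GRCm38.p6), each from 250 bases before to 50 after an annotated transcript start, were matched for 7 of the 10 genes, with 15 windows in all. They are on the plus strand in every case. Dlgap2, Shank1 and Shank2 had none. A MICAL1-FL peak overlapped a window at 4 of these 7 genes, where 11.7% of all genes with a promoter sequence have one. A control peak overlapped a window at 0 of the 7 (11.2% of all genes). Counted by single windows these were 4 and 0 of 15, where 9.35% and 9.29% of all windows carry a peak. The members' genes have up to 4 windows each, so windows of 1 gene are not independent. The stretches with a MICAL1-FL peak are shown because no other of the 15 windows held a peak of either list. They hold the 250 bases before the annotated start, 5′ to 3′, with the bases inside the MICAL1-FL peak in capitals:
Dlg1, chr16:31663685-31663934, + strand: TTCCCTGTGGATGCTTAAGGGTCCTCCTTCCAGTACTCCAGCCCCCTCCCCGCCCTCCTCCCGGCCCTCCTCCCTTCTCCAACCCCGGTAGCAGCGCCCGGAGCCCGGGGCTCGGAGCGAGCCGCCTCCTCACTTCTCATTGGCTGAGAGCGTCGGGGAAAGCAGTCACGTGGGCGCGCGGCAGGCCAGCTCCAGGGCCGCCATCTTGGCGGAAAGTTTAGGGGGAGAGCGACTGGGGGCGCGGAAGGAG
Dlg2, chr7:91090536-91090785, + strand: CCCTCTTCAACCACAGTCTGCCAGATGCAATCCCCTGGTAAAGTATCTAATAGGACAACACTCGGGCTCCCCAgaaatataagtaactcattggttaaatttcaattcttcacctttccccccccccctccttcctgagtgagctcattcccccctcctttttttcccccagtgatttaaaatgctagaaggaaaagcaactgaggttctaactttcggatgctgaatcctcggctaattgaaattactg
Dlgap4, chr2:156720715-156720964, + strand: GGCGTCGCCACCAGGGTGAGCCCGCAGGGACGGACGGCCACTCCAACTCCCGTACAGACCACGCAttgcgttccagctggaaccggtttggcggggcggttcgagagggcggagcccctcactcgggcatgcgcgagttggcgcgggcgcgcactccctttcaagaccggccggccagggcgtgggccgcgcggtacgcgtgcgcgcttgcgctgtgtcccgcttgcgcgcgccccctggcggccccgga
Shank3, chr15:89499358-89499607, + strand: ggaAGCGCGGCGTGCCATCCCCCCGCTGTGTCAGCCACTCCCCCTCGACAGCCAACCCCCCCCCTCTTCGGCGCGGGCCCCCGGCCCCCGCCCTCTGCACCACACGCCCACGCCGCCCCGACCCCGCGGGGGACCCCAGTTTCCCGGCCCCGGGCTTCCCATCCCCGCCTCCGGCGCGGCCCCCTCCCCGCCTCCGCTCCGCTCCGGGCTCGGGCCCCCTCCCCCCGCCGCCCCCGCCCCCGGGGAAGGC
All 250 bases of the Dlg1 stretch and 247 of the Shank3 stretch lay inside the peak, against 73 at Dlg2 and 65 at Dlgap4, where the peak ended soon after the stretch began.

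The peaks at these promoters were shallow. The Dlg1 peak was 7 fragments deep (fold 2.53) with its summit 158 bases after the start, and a control peak of 7 fragments (fold 2.12) had its summit 319 bases after the same start. At Dlg1 both lists therefore had a peak at this promoter, and the control peak began beyond the 300-base window. The Shank3 peak was 6 fragments deep (fold 2.66) with its summit at -104 relative to the start, while the nearest control summit was at 3898. The Dlgap4 peak was 6 fragments deep (fold 2.68) with its summit at -296, and the Dlg2 peak 5 fragments deep (fold 2.08) with its summit at -473. The nearest control summits were at -5946 from the Dlgap4 start and at 42255 from the Dlg2 start. With the wider mark of 1 kb on both sides of the gene's outermost start the order of the lists was the other way round. Then 5 of the 7 genes had a control peak (23.2% of all genes with a strand) and 3 a MICAL1-FL peak (22.6%). At the 3′ end, within 1 kb, 1 of the 7 genes had a control peak (8.48% of all genes) and 2 had a MICAL1-FL peak (7.39%). The outermost starts of Dlg2, Dlgap3, Dlgap4 and Shank3 are not among the RefSeq promoter sequences, so these measures look at different places.

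The base composition of these windows varied. G and C made up 81.0% of the Shank3 window, 76.3% of the Dlgap4 window and 71.0% of the Dlg1 window, but 44.7% of the Dlg2 window. Over all 32851 windows the median was 52.7%, and it was 63.3% in windows with a control peak, 62.7% in windows with a MICAL1-FL peak and 51.3% in those with none. ATRX is known to bind guanine-rich repeats that can fold into quadruplexes. A pattern of 4 runs of GGG or longer with 1 to 7 bases between neighbouring runs, searched on both strands, was present in 18.6% of all windows. It was present in 32.9% of windows with a control peak and 30.5% of those with a MICAL1-FL peak, which are also the windows richer in G and C. The Dlg1 and Shank3 windows hold it, and those of Dlgap4 and Dlg2 do not. It is also in 2 of the 3 Dlg4 windows, where no peak of either list lay. The part of base composition in where peaks were called was not tested.

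The Dlg genes encode the receptor-binding tier. Dlg4, whose product PSD-95 anchors glutamate receptors, is the shortest member at 28.3 kb and had 6 control peaks and 1 MICAL1-FL peak. The control peaks were 4 to 6 fragments deep and lay in the 5′ part of the gene, between 0.992% and 55.7% of its length. The nearest to a start was 5 fragments deep with its summit 281 bases after it. The MICAL1-FL peak, 5 fragments deep, lay at 97.5% of the length. The numbers of peaks gave densities of 157 (57.4 to 341) and 26.1 (0.660 to 145) per Mb, whose intervals overlap. The ratio of MICAL1-FL to control peaks was 0.167 with an interval of 0.00362 to 1.37, which includes the 0.926 of all protein-coding genes.

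Dlg1, which encodes SAP97, a scaffold known to bind AMPA receptors, had 5 control and 7 MICAL1-FL peaks, densities of 22.7 and 31.8 per Mb. These were 0.486 and 0.734 times the densities of all genes, the lowest of the 10 genes in the control list. Its only peak in both lists was the one at the promoter, with 283 bp in common. Dlg2, which encodes PSD-93, had 93 control and 89 MICAL1-FL peaks. Their densities, 46.9 (37.9 to 57.5) and 44.9 (36.0 to 55.2) per Mb, were 1.0 and 1.04 times those of all genes. Among the 4945 protein-coding genes of 50 kb or longer it was in place 2110 by control and 2054 by MICAL1-FL density. The peaks spread over the whole gene. In 5 equal parts from the 5′ end there were 16, 14, 18, 19 and 26 control summits and 14, 16, 21, 20 and 18 MICAL1-FL summits. Of these many peaks, 3 control and 3 MICAL1-FL peaks overlapped each other.

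The Dlgap genes encode the middle tier. Dlgap1 was the scaffold gene with the most peaks and, after Dlg4, the highest control density. It had 128 control peaks per Mb (105 to 154) and 96.2 MICAL1-FL peaks per Mb (76.7 to 119), which is 2.72 and 2.22 times the densities of all genes. Among genes of 50 kb or longer it was in place 124 and 218 of 4945. Over the neighbouring 500 kb of lower coordinates there were 62 (control) and 48 (MICAL1-FL) per Mb, and over the 500 kb of higher coordinates 62 and 58. The density was thus higher inside the gene than on either side in both libraries, and the neighbours lay below the lower interval bounds of the gene.

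Inside Dlgap1 the peaks extended over the whole 852 kb. In 5 equal parts from the 5′ end there were 18, 18, 22, 31 and 20 control summits and 14, 12, 18, 24 and 13 MICAL1-FL summits. The fourth part was the richest in both lists, with 28.4% and 29.6% of the 109 and 81 summits. It was picked as the highest of 5 parts, and these shares carry no interval. In all protein-coding genes of 50 kb or longer with a known strand this part held 18.9% in both lists, and the part at the 5′ end was the richest with 24.0% and 23.9%. In Dlgap1 the 5′ part held 16.5% and 17.3%. Single bins of 50 kb held 3 to 12 control and 1 to 11 MICAL1-FL summits within the gene.

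**Figure D2:**
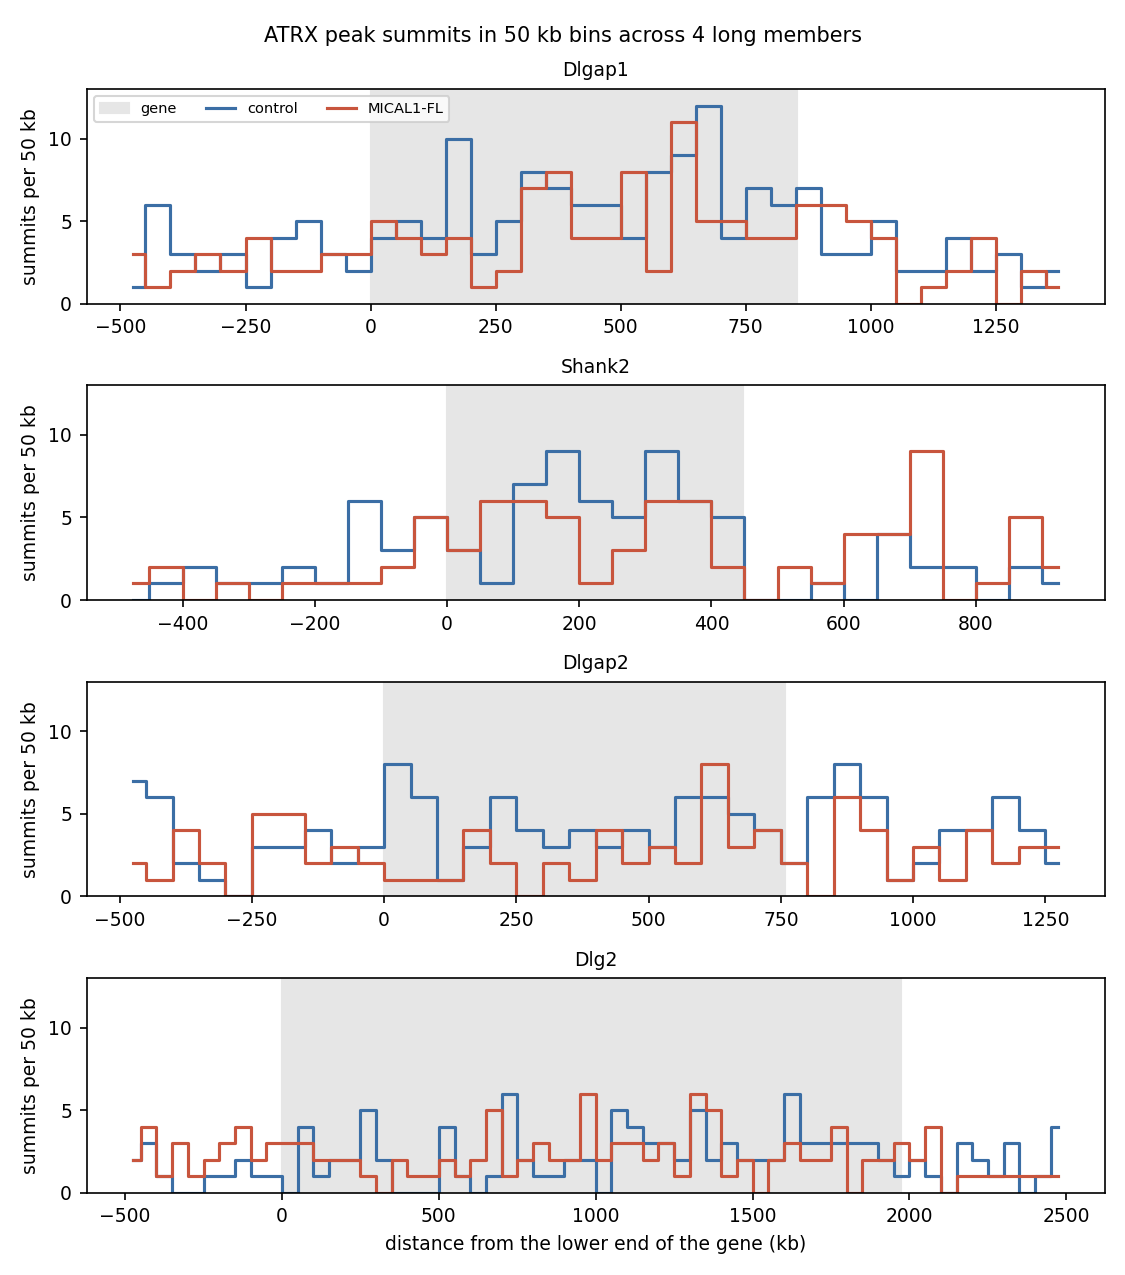
Summits per 50 kb (y axis) against the distance from the lower end of the gene in kb (x axis) for Dlgap1, Shank2, Dlgap2 and Dlg2, with the gene shaded, in the control (blue) and MICAL1-FL (red) lists. In Dlgap1 the bins inside the gene reach 12 control and 11 MICAL1-FL summits, while in Dlg2 no bin inside the gene exceeds 6.

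The strongest control peak of Dlgap1 covered chromosome 17 70110569 to 70110888, with a fold of 4.20, a depth of 10 fragments and a -log10 q of 1.47. A MICAL1-FL peak of 6 fragments overlapped it by 236 bp. The strongest MICAL1-FL peak of Dlgap1 covered chromosome 17 69969138 to 69971244, next to an annotated start of the gene, with a fold of 3.63 and a depth of 11 fragments. It was the widest peak of the 10 genes at 2107 bp. A control peak of 339 bp and 6 fragments lay wholly inside it, and the summits, 1562 and 1509 bases after the start, were 53 bp apart. Both libraries thus had a peak at the same place beside the Dlgap1 start, of different width. Peaks of 800 bp or wider made up 3.64% of control and 7.23% of MICAL1-FL peaks in Dlgap1 (4 and 6 peaks), against 3.06% and 2.61% over protein-coding genes.

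Dlgap2 had the lowest MICAL1-FL to control ratio of the scaffold genes with at least 10 peaks in both lists together. It had 68 control and 40 MICAL1-FL peaks, 88.6 (68.8 to 112) and 52.1 (37.2 to 71.0) per Mb. The ratio was 0.588 (0.388 to 0.882), an interval that leaves out the 0.926 of all genes. This interval covers counting error only and does not allow for Dlgap2 being the lowest of several genes. A ratio at least 1.5-fold below that of all genes was found at 19.5% of all genes with at least 10 peaks. With only peaks of p at most 0.01 there were 50 and 31 peaks, and the ratio over that of all genes moved from 0.635 to 0.671, just inside the 1.5-fold mark. The interval of that ratio, 0.383 to 0.990, includes the 0.924 of all genes at that threshold. The difference lay towards the lower coordinates of the gene. In 5 equal parts from there the control list had 15, 13, 11, 12 and 16 summits and the MICAL1-FL list 3, 6, 7, 8 and 15. The last part held nearly equal numbers, and the opening 50 kb held 8 control summits and 1 MICAL1-FL summit. Outside the gene the 500 kb of lower coordinates had 60 (control) and 52 (MICAL1-FL) per Mb, and those of higher coordinates 86 and 50.

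The strongest MICAL1-FL peak of the 10 genes by p-value was in Dlgap2, at chromosome 8 14289384 to 14289750, with a fold of 4.59, a depth of 11 fragments and a -log10 q of 2.43. No control peak overlapped it. The deepest control peak of the 10 genes was also in Dlgap2, at chromosome 8 14306789 to 14307281, with 51 fragments. Its fold was only 1.70, beside a background there of 29.6 fragments, against a lowest background of 1.62 in that list.

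Dlgap3 and Dlgap4 had few peaks. Dlgap3 had 5 control and 3 MICAL1-FL peaks, and its strongest, in the control list, was 1100 bp wide and 10 fragments deep with a fold of 3.90. It lay at the 5′ end of the gene, at 0.895% of its length, and no MICAL1-FL peak overlapped it. Dlgap4 had 7 control and 9 MICAL1-FL peaks, of which none overlapped between the lists. Near its outermost start the control list had peaks of 6 and 7 fragments, and the MICAL1-FL list also had peaks of 6 and 7 fragments at other places there. Around the internal start shown above, at 71.0% and 71.5% of the gene, the MICAL1-FL list had peaks of 6 and 7 fragments and the control list none.

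The Shank genes encode the deep tier of the scaffold. Shank2 was, like Dlgap1, dense in both libraries, with 51 control and 38 MICAL1-FL peaks, or 111 (82.9 to 146) and 83.0 (58.7 to 114) per Mb. It was in place 202 and 398 of the 4945 genes of 50 kb or longer. Outside it the 500 kb of lower coordinates had 44 (control) and 28 (MICAL1-FL) per Mb, and those of higher coordinates 26 and 56. All 4 neighbouring values lay below the lower bound of the gene in the same list. With peaks of p at most 0.001, of which it had 4 control and 6 MICAL1-FL, the control density was 1.23 times that of all genes, under the 1.5-fold mark. In 5 equal parts from the lower coordinate the control list had 3, 14, 11, 13 and 10 summits and the MICAL1-FL list 8, 9, 5, 8 and 8. The strongest MICAL1-FL peak of Shank2, at chromosome 7 144175309 to 144176146, was 10 fragments deep with a fold of 3.70, and a control peak of 5 fragments lay wholly inside it.

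Shank3, whose loss is known from neurodevelopmental disorders, had 4 control and 3 MICAL1-FL peaks, with none in common. The strongest of each list, of 7 and 6 fragments, lay at 15.6% and 9.65% of its length. Shank1 had 3 control peaks and 1 MICAL1-FL peak. The MICAL1-FL peak, 636 bp wide and 7 fragments deep (fold 3.06), held a whole control peak of 315 bp and 8 fragments (fold 2.95). It lay in the middle of the gene, at chromosome 7 44335559 to 44336194, and the gene 1700008O03Rik overlaps Shank1. The other scaffold genes overlapped no further protein-coding gene.

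**Figure D3:**
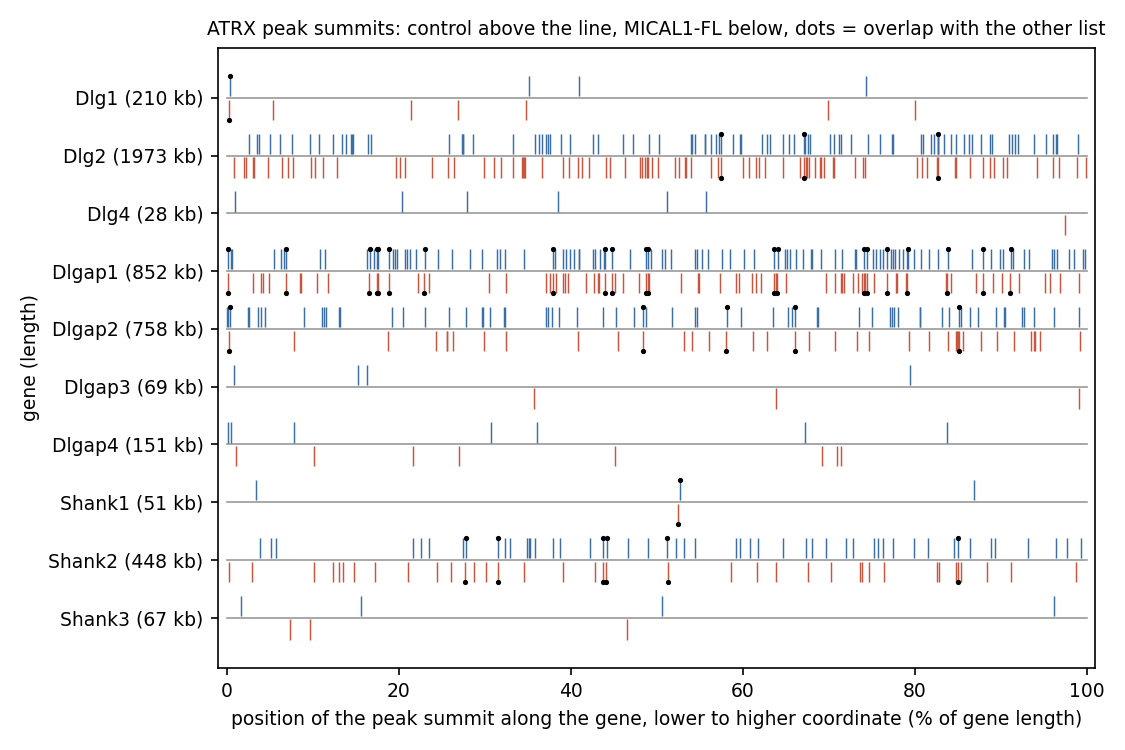
Summits of ATRX peaks along each scaffold gene, as percent of its length from the lower to the higher coordinate (x axis), with control peaks above and MICAL1-FL peaks below each line; dots mark peaks that overlap a peak of the other list by at least 1 bp. Dlgap1 carries 22 of the 38 overlapping control peaks. Peaks with summits in the flanks are not drawn.

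Peaks present in both lists were gathered in Dlgap1. Over the 10 genes 38 control peaks each overlapped 1 MICAL1-FL peak by at least 1 bp. These were 10.8% of control (7.75 to 14.5) and 13.9% of MICAL1-FL peaks (10 to 18.5). In all protein-coding genes 8.06% and 8.69% of peaks were shared. Dlgap1 held 22 of the 38 pairs, so 20% of its control peaks (13 to 28.7) and 26.5% of its MICAL1-FL peaks (17.4 to 37.3) were shared. Without Dlgap1 the other 9 genes had 16 pairs, 6.61% of control (3.83 to 10.5) and 8.38% of MICAL1-FL peaks (4.86 to 13.2). Shank2 had 6 pairs, Dlgap2 5, Dlg2 3, and Dlg1 and Shank1 1 each. Dlg4, Dlgap3, Dlgap4 and Shank3 had none, where with 6, 5, 7 and 4 control peaks the interval of the share reaches 45.9%, 52.2%, 41.0% and 60.2%.

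Shares were set beside those of other genes with many peaks. At least 1 pair was present at 6 of the 10 scaffold genes, and at 30.8% of all genes with peaks in both lists, most of which have far fewer peaks. Of the 4 scaffold genes with at least 20 peaks in each list, 1 (Dlgap1) shared 20% or more of its control peaks, as did 9.07% of the 375 such genes. By control share 34 of the 375 genes were at or above Dlgap1, 104 at or above Shank2, 212 at or above Dlgap2 and 320 at or above Dlg2. Most of these 34 were clustered protocadherin genes, whose spans overlap, so the same peaks count in several of them. The others, beside Dlgap1 itself and the genes Gm37013, Gm38666 and Gm38667, were Celf4, Dscam, Gse1, Pde10a and Zfp978. The median share over the 375 genes was 8.0%. Over the 139 of them that were dense in both lists it was 11.1%, with a highest share of 42.4%, at the protocadherin gene Pcdhga10. These values count each of the overlapping protocadherin genes singly. Control peaks covered 5.23% of Dlgap1 and its flanks, MICAL1-FL peaks 4.08%, and 0.589% was covered in both. In Dlg2 these were 1.70%, 1.77% and 0.0275%.

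The overlapping peaks of the scaffold genes were modest in depth and loosely aligned. They had 21 to 682 bp in common, with a median of 231 bp, and summits 26 to 761 bp apart, with a median of 191 bp. Control peaks of the pairs were 4 to 10 fragments deep and MICAL1-FL peaks 4 to 11, and both were at least 6 deep in 10 of the 38 pairs. In Dlgap1 the median summit distance was 307 bp, and 10 of its 22 pairs had summits within 250 bp. Counted by summits within 250 bp, 9.09% of Dlgap1 control peaks were shared, where all genes had 5.27%, against 20% and 8.69% by overlap of at least 1 bp. In these shares of all genes a control peak in several genes counts once for each.

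**Figure D4:**
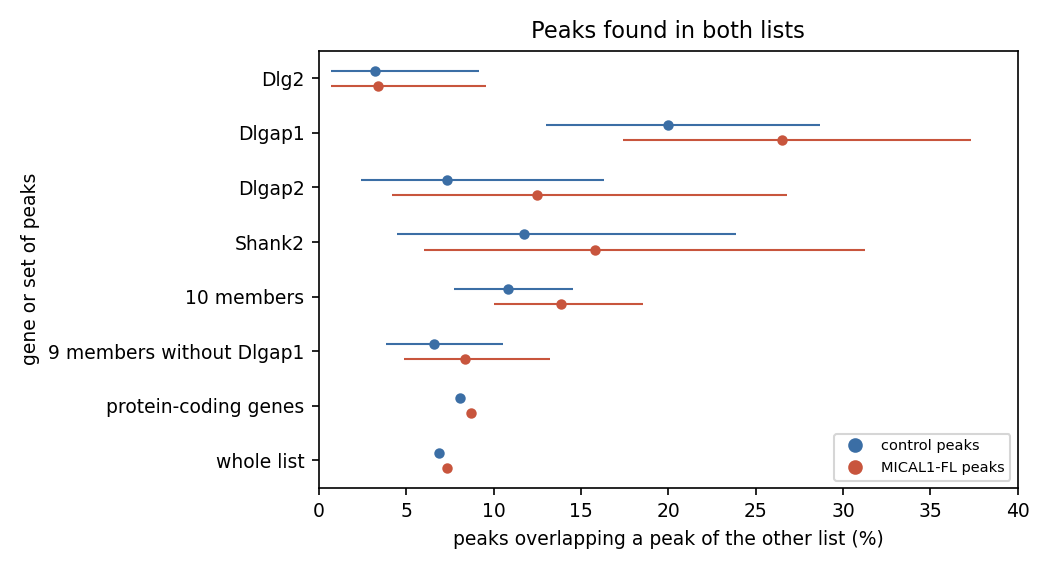
Percent of control (blue) and MICAL1-FL (red) peaks that overlap a peak of the other list by at least 1 bp (x axis), with exact 95% binomial intervals, for the scaffold genes with at least 20 peaks in each list and for sets of peaks (y axis). Dlgap1 reaches 20% and 26.5%, against 8.06% and 8.69% over protein-coding genes.

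The scaffold genes together had fewer MICAL1-FL than control peaks, by a margin that depended on the members counted. The ratio of 274 to 352 peaks was 0.778 (0.662 to 0.914), where all protein-coding genes had 0.926. The interval leaves out 0.926 narrowly, and it includes it without Dlgap1 (0.649 to 0.958), without Dlgap2 (0.690 to 0.983), with a flank of 20 kb (0.674 to 0.923, beside 0.908 for all genes) or with peaks of p at most 0.01 (0.643 to 0.942, beside 0.924 for all genes). With peaks of p at most 0.001 the interval also includes the ratio of all genes (0.448 to 1.10, beside 0.799). The interval leaves the ratio of all genes out without Dlg2 (0.588 to 0.866) and with no flank (0.662 to 0.915, beside 0.928). It also does so when peaks are counted by their summits (0.660 to 0.911, beside 0.926). A ratio was taken for single genes with at least 10 peaks in the 2 lists together, which 6 scaffold genes had. Of these, 1 (Dlgap2) was at least 1.5-fold below the ratio of all genes, as were 19.5% of the 2602 genes with as many peaks, and 1 (Dlg1) at least 1.5-fold above it, as were 20.7%. Both counts are near what all genes show. The median log2 ratio relative to all genes was -0.12 over the 6 and -0.0036 over the 2602.

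The ratios of the others were 0.957 (0.707 to 1.29) for Dlg2, 0.755 (0.560 to 1.01) for Dlgap1, 0.745 (0.476 to 1.16) for Shank2 and 1.29 (0.426 to 4.06) for Dlgap4. All of these intervals include the ratio of all genes. For Dlg1 the ratio of 7 to 5 peaks was 1.4 (0.382 to 5.59), and with a flank of 20 kb it was 0.875, from 7 MICAL1-FL and 8 control peaks. Its direction changed with 3 added control peaks. With peaks of p at most 0.01 the ratio of Dlgap1 was 0.648 (0.456 to 0.914, from 88 control and 57 MICAL1-FL peaks), an interval that leaves out the 0.924 of all genes at that threshold.

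**Figure D5:**
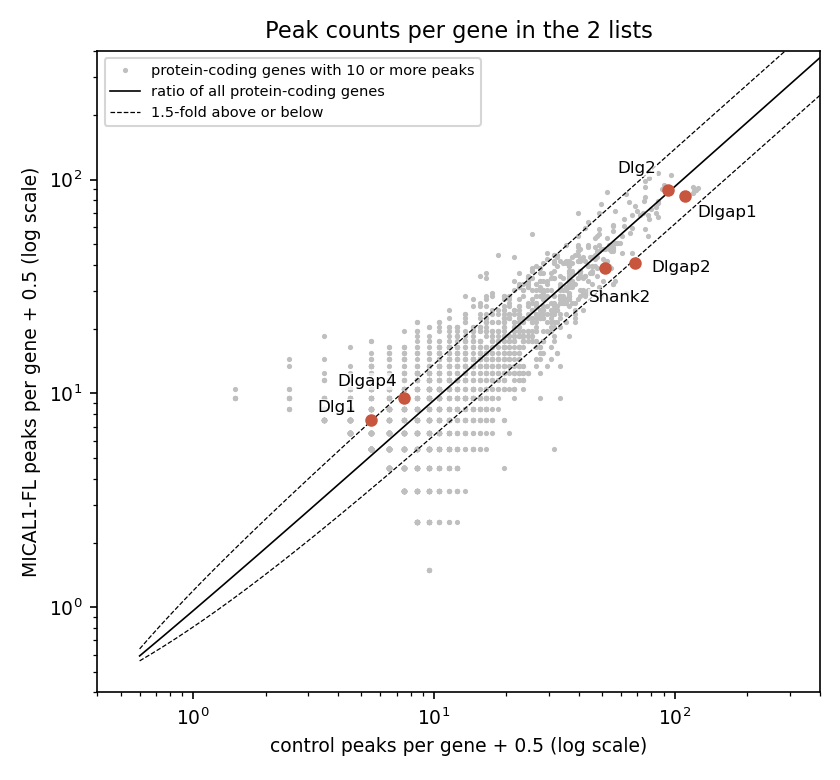
Control peaks per gene (x axis) and MICAL1-FL peaks per gene (y axis), both plus 0.5 on log scales, for 2602 protein-coding genes with at least 10 peaks in the 2 lists together (grey) and the 6 scaffold genes among them (red). The solid line is the ratio of all protein-coding genes (0.926) and the dashed lines are 1.5-fold above and below it; Dlgap2 lies just below the lower dashed line and Dlg1 at the upper one.

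A peak within 1 kb of either gene end was present at 6 of the 10 scaffold genes among control peaks (29.3% of all genes) and at 6 among MICAL1-FL peaks (27.9%). Both lists had one at 4 genes (12.3% of all genes), which were Dlg1, Dlg4, Dlgap3 and Dlgap4. At Dlg1 and Dlgap4 the lists had it at the same end, and at Dlg4 they had it at opposite ends. Only at Dlg1 did these peaks overlap. At Dlgap3 the control list had a peak at both ends and the MICAL1-FL list at the 3′ end. Control peaks alone marked Dlgap2 and Shank3, MICAL1-FL peaks alone marked Dlgap1 and Shank2, and Dlg2 and Shank1 had neither. With peaks of p at most 0.01, 4 of the 10 genes had an end peak in each list, beside 22.7% (control) and 21.2% (MICAL1-FL) of all genes.

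A wider set of 38 further genes, listed as postsynaptic density genes, was measured in the same way. Not all of them are scaffold or receptor-anchoring genes, and the place of Dlgap5 at the synapse was not checked. The peaks of the set numbered 412 for the control and 387 for MICAL1-FL (ratio 0.939, interval 0.816 to 1.08), at densities of 54.5 and 51.2 per Mb. Of the 38 genes 4 lie on the X chromosome, where no member lies. Control densities there were 0.252 (Cask), 0.183 (Cnksr2), 0.235 (Iqsec2) and 1.05 (Dlg3) times that of all genes. The most peaks were in Magi2, a scaffold with PDZ domains (77 control and 68 MICAL1-FL peaks), Grip1, which binds AMPA receptors (47 and 43), and Kalrn, a guanine nucleotide exchange factor of dendritic spines (36 and 32). Of the 18 genes with at least 10 peaks, 3 had a ratio at least 1.5-fold above that of all genes, 4 at least 1.5-fold below it and 11 neither. Among the 2602 protein-coding genes with as many peaks, 20.7% were above and 19.5% below, so both counts are near what all genes show. Above were the densin gene Lrrc7 (24 and 34 peaks), Tanc1 (11 and 20) and Magi3 (6 and 12). Below were Tanc2 (16 and 8), Lin7a (16 and 8), Cacng2, which encodes the AMPA receptor partner stargazin (14 and 8), and Baiap2 (10 and 6). The counting interval of each of these 7 ratios includes 0.926. A density at least 1.5 times that of all genes in both lists was found at 6 of the 38, where 10.1% of all genes have one. Of the control peaks 8.5% were shared with the other list, as were 8.79% of the MICAL1-FL peaks. In all protein-coding genes these shares were 8.06% and 8.69%. Of the genes of 50 kb or longer in this set none reached both the control and the MICAL1-FL density of Dlgap1. The nearest was Baiap2, chosen here after its values were seen, with 130 and 78.1 peaks per Mb on 10 and 6 peaks.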

How the data were processed

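ATRX ChIP-seq peak lists of 1 control (mCherry) and 1 MICAL1-FL library were used, and the groups were taken from the sample titles. Input of control neurons was not analysed here. The submitters' processing notes name ChIPseeker 1.26.2, MACS 1.4.2, Bowtie 1.3.0 and SAMtools 1.9 without their roles. A peak layout with q-values and summit offsets is not the one MACS 1.4.2 is known to write, so the caller and its formula are inferred, and so is every depth. Genome build and calling threshold: not given in the sources used here. The fold (a ratio over background), the -log10 p, the -log10 q and the score of each peak are as deposited, made by the authors' peak caller per sample. The largest p was 0.0498 and 0.0496. The deposited score is the whole part of 10 times -log10 p. The deposited summit offset gave the summit. Fragments and single reads cannot be told apart in these values.

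Gene spans and names came from RefSeq GRCm38.p6, assuming that the lists use that assembly. Peak depth was inferred from fold = (pileup + 1)/(background + 1) and a Poisson p for exceeding the pileup, with a match within 0.005 in -log10 p. It was recovered for 99.95% of control and 99.97% of MICAL1-FL peaks. It was also recovered for 100% of 4913 simulated peaks, which were made with the same formula and so cannot check it. Counting and overlap were tested on simulated data. Background of the lists may have been scaled differently, so folds are not compared between them.

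All 10 members are named, with the strongest peak of each list and overlapping pairs. Of the wider set, genes past 1.5-fold and the 3 with most peaks are named. The members, lists and marks were chosen with earlier results of these data known. The comparison of neighbouring 500 kb, bins, wide peaks, promoter windows and genes with 20 peaks in each list was chosen after the data were seen. Alternatives were flank, p threshold, definition of sharing, summit or overlap, the distance from gene ends, and leaving out Dlg2; leaving out Dlgap1 or Dlgap2 was added after the data were seen. Python 3.11.15, numpy 2.4.6, pandas 2.3.3, scipy 1.17.1 and matplotlib 3.10.9 were used.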

Additional observations from a re-analysis of the deposited data

How the results depend on the processing

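With 1 library per condition and shallow peaks, numbers of peaks limit every value here. The ratio of the 10 genes over that of all genes was 0.840 and stayed below 1 under all 8 alternatives run, from 0.771 without Dlg2 to 0.890 without Dlgap2. Densities over those of all genes moved beyond counting error only with the members counted: without Dlg2 they were 2.03 (control) and 1.57 (MICAL1-FL), and without Dlgap1 1.34 and 1.15, against 1.60 and 1.34. Shared control and MICAL1-FL peaks were 6.61% and 8.38% without Dlgap1, 7.10% and 9.12% with an overlap of at least 50% of the shorter peak (all genes 6.11% and 6.58%), 6.82% and 8.76% with summits within 250 bp (all genes 5.27% and 5.69%), and 25.0% and 30.7% with gaps of up to 1 kb allowed (20.6% and 22.1%). Without Dlg2, 18.9% of MICAL1-FL peaks were shared. Of 127 ratios and densities of single genes under the alternatives, 13 moved to the other side of the value of all genes and 21 crossed a 1.5-fold mark, 13 of the latter with p at most 0.001, where few peaks are left. Of the 13 that changed side, 4 had been past a mark. With a flank of 20 kb the ratio of Dlg1 was 0.964 times that of all genes and the MICAL1-FL density of Dlg4 1.09 times. With p at most 0.001 the control density of Dlg4 was 0 and the MICAL1-FL density of Shank1 2.88 times that of all genes. No paired analysis was possible because each condition has 1 library and the labels give no replicate numbers.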
